A study of Arabidopsis thaliana with 6 samples.

Results

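Molecular chaperones help other proteins to fold and keep damaged ones from aggregating, and heat and other proteotoxic stress raise the transcripts of many of them through heat shock factors. The 3 genes described here act at different steps of this system. Hsp70-2 (AT5G02490) encodes a cytosolic Hsp70, an ATP-driven chaperone that binds unfolded stretches of its clients. Fes1A (AT3G09350) is a homologue of yeast Fes1, a nucleotide exchange factor of Hsp70, and is known in Arabidopsis for its part in acquired thermotolerance. AT5G48570, also listed as ROF2 and FKBP65, encodes a peptidyl-prolyl isomerase of the FK506-binding family, which turns peptide bonds before proline and is known to be heat-induced. The genes were taken as those with a probe set annotated to AT5G48570, Hsp70-2 or Fes1A alone. Each has 1 such probe set, so there are 3 among 22746 non-control probe sets, of which 13513 are paired with 1 gene. They are 3 of 13350 genes with a probe set of their own. The 3 were chosen by their signals on these same 6 arrays, in both comparisons described below, so their own differences are descriptions and were not tested.

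The samples were whole Arabidopsis thaliana seedlings of the Columbia strain (Col-0), grown for 13 days in shaken liquid medium. The TNT group, 3 samples, received the explosive 2,4,6-trinitrotoluene at 60 µM in 60 µl of the solvent dimethylformamide (DMF), and the DMF group, also 3 samples, received 60 µl of solvent alone. RNA was taken after 6 h and hybridised to 1 Affymetrix ATH1 array per sample, so plants of both groups had been given DMF. The labels do not say whether samples came from separate flasks, so the p-values below rest on a spread between samples that could be technical alone.

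Values are MAS5 signals, which the authors had scaled to a common mean on each array. The arrays carry the numbers 1, 2 and 3 in each group, and those numbered 2 stood apart from the rest in both groups. The array labelled TNT replicate 2 lay close to the solvent arrays in genes known to respond to TNT: the 5 tested genes of that list, among them GSTU25 and UGT73B5, had mean log2 signals of 8.39, 5.35 and 8.61 on TNT replicates 1, 2 and 3, against 4.97, 5.10 and 5.19 on DMF replicates 1, 2 and 3. Among them, GSTU25 differed between TNT and DMF by 5.51, 0.59 and 5.06 on the log2 scale in pairs 1, 2 and 3. Whether TNT replicate 2 carries the right label, or its seedlings received the same dose, cannot be settled from these values. What the TNT minus DMF differences in pair 2 measure is thus uncertain. The same holds for the arrays numbered 2 against 1 and 3 in genes that respond to TNT. Log2 signals over all non-control probe sets were also less spread on the arrays numbered 2, with SDs of 2.49 (TNT) and 2.39 (DMF), against 2.65 to 2.81 on the other 4. Low signals were higher there. The median log2 difference of the arrays numbered 2 from those numbered 1 and 3 was 0.61 among the 9098 probe sets left out for low signal, 0.30 in the lowest quintile of the 13648 tested and -0.11 in the highest quintile. All 3 genes passed the filter and lie in the middle quintile by mean signal over the 6 arrays, where that median was 0.06. That mean includes the arrays numbered 2. On the arrays numbered 1 and 3 AT5G48570 averaged 5.85, Hsp70-2 6.20 and Fes1A 6.43. The values of AT5G48570 and Hsp70-2 fall in the range of the next lower quintile (5.60 to 6.28), where the median was 0.16. Whether this difference between arrays plays a part in the results below was not tested beyond the alternative scalings. The number of arrays limits the precision.

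AT5G48570 had signals of 83.8, 244 and 70.1 on TNT replicates 1, 2 and 3, against 48.5, 336 and 39.1 on DMF replicates 1, 2 and 3. Both arrays numbered 2 were thus far above the other 4, and the highest array exceeded the lowest 8.60-fold. The difference between the numbers was present under both treatments. The array numbered 2 was 3.19-fold above the geometric mean of numbers 1 and 3 within TNT, and 7.72-fold above it within DMF. On the log2 scale the arrays numbered 2 averaged 8.16 and the other 4 averaged 5.85 ± 0.50 (SD, n = 4), a difference of 2.31 that was larger than that of 99.9% of tested probe sets.

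**Figure D1:**
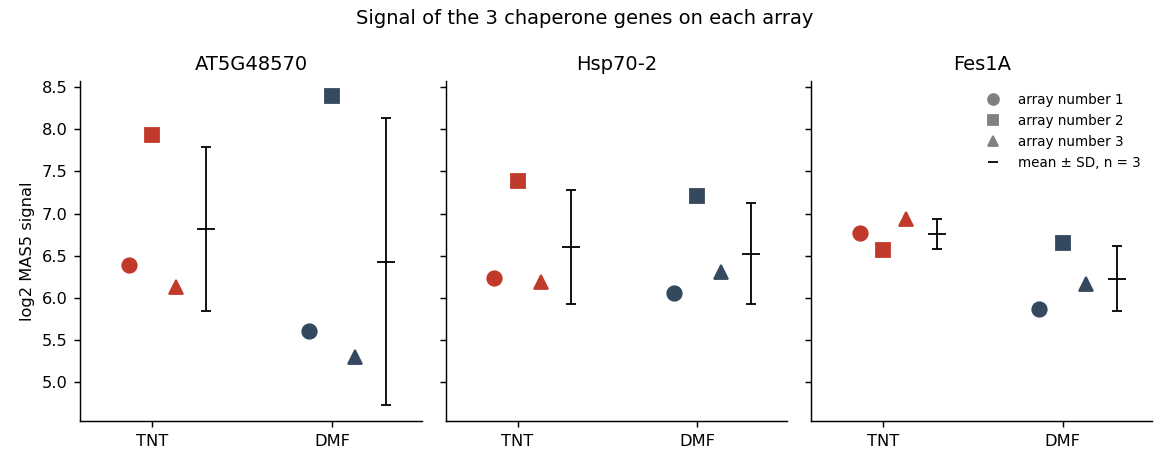
Log2 MAS5 signal (y axis) of AT5G48570, Hsp70-2 and Fes1A on the 3 TNT arrays (red) and the 3 DMF arrays (dark), with the array number as marker shape and the mean ± SD (n = 3) of each group beside the points. The squares, arrays numbered 2, stand above all other arrays of both groups for AT5G48570 and Hsp70-2, while for Fes1A the square is highest among the DMF arrays and lowest among the TNT arrays.

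Hsp70-2 was also highest on the arrays numbered 2, by a smaller difference. Its signals were 75.5, 167 and 72.9 on TNT replicates 1, 2 and 3, and 66.5, 148 and 79.3 on DMF replicates 1, 2 and 3. Both arrays numbered 2, at a mean log2 signal of 7.30, exceeded the other 4, which lay close together at 6.20 ± 0.11 (SD, n = 4). The ratio of number 2 to numbers 1 and 3 was 2.25-fold within TNT and 2.03-fold within DMF. The log2 difference of 1.10 was above that of 98.4% of tested probe sets. Hsp70-2 lies next to AT5G02500, another gene of cytosolic Hsp70, in the reference gene order. Whether its probes also match that transcript was not examined, so the value is uncertain to that extent.

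Fes1A did not share that pattern. Its signals were 109, 95.0 and 122 on TNT replicates 1, 2 and 3, against 58.5, 100.1 and 71.7 on DMF replicates 1, 2 and 3. DMF replicate 2 was the highest of its group and TNT replicate 2 the lowest of its group, and the log2 difference of TNT replicate 2 minus DMF replicate 2 was -0.075. The array numbered 2 was 0.825 times the mean of numbers 1 and 3 within TNT and 1.55-fold above it within DMF. The difference over both treatments was 0.18, a value above that of 60.7% of tested probe sets. Over the 6 arrays the log2 signals of AT5G48570 and Hsp70-2 had a Pearson r of 0.92, while those of Fes1A had 0.47 with AT5G48570 and 0.27 with Hsp70-2. These are descriptions over arrays that share the split by number, and they were not tested.

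Of the 3 genes, 2 thus had both arrays numbered 2 above the other 4, an order that 22.4% of tested probe sets showed. In limma with treatment as a term, 571 of 13648 probe sets differed between the arrays numbered 2 and the others at an adjusted p under 0.05, which is 4.18%. Of these 326 (2.39%) were higher and 245 (1.8%) lower on the arrays numbered 2. The split by number was singled out with these values known. The count depends on single arrays: it was 37 without TNT replicate 2, 61 without DMF replicate 1, 71 without TNT replicate 1, 91 without TNT replicate 3, 259 without DMF replicate 3 and 1153 without DMF replicate 2. Centring each array on its median lowered the median difference of all tested probe sets to -0.17, against 0.07 as deposited. AT5G48570 and Hsp70-2 then stood 2.07 and 0.86 higher on the arrays numbered 2, and Fes1A 0.07 lower.

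TNT against DMF is the comparison the study was laid out for. Fes1A was higher with TNT in the pairs numbered 1 and 3, by log2 differences of 0.89 and 0.77, or 1.86-fold and 1.70-fold, and stood at -0.075 in pair 2. AT5G48570 was higher in the same pairs, by 0.79 and 0.84, or 1.73-fold and 1.79-fold. In pair 2 it was 0.728 times its DMF level, a log2 difference of -0.46. Hsp70-2 differed by 0.18, 0.18 and -0.12 in pairs 1, 2 and 3, less than the SDs of 0.68 among its TNT arrays and 0.61 among its DMF arrays. Among tested probe sets, 36.4% were higher with TNT in both pairs 1 and 3, as these 2 of the 3 genes were, and 17.6% were also lower in pair 2, again as these 2 were.

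**Figure D2:**
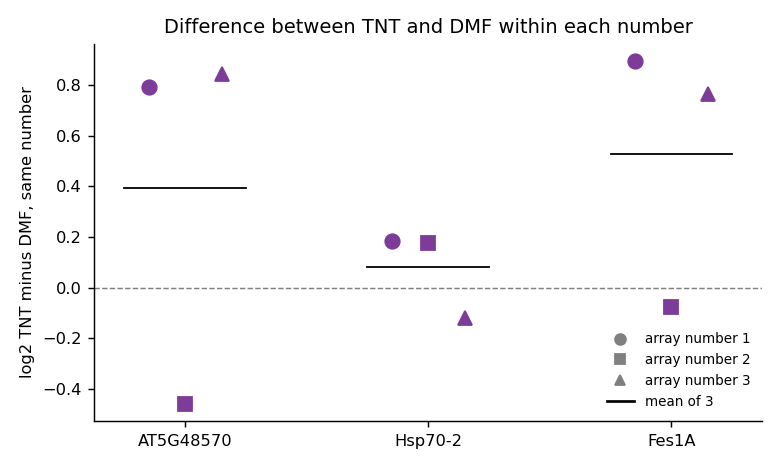
Log2 difference of TNT minus DMF (y axis) for AT5G48570, Hsp70-2 and Fes1A within each array number, with the mean of the 3 pairs as a line. In pairs 1 and 3 AT5G48570 and Fes1A lie between 0.77 and 0.89, while pair 2 lies at -0.46 and -0.075, and Hsp70-2 stays within 0.18 of 0.

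Fes1A had mean log2 signals of 6.76 ± 0.18 with TNT and 6.23 ± 0.39 with DMF, AT5G48570 had 6.82 ± 0.97 with TNT and 6.43 ± 1.71 with DMF, and Hsp70-2 had 6.60 ± 0.68 with TNT and 6.52 ± 0.61 with DMF (SD, n = 3 each). TNT and DMF arrays overlapped for all 3 genes, while they did not overlap for 12.3% of tested probe sets. The mean difference over all 6 arrays was 0.53 for Fes1A, larger than the SD of either group. It was 0.39 for AT5G48570 and 0.08 for Hsp70-2, both smaller than the SD of either group, which includes the difference by number. For AT5G48570 the sign turned with 1 array: the difference was 1.37 without DMF replicate 2, -0.17 without TNT replicate 2, -0.18 without DMF replicate 3 and -0.02 without DMF replicate 1. That of Fes1A stayed between 0.35 and 0.74 with each array left out in turn. The genes were chosen with this comparison in view, so neither the comparison with the SDs nor this range is a test. With the arrays numbered 1 and 3 only, Fes1A and AT5G48570 were 1.78-fold and 1.76-fold higher with TNT, and Hsp70-2 was at 1.02-fold. No probe set passed in limma over the 6 arrays (0.0% of 13648), and 1195 had an unadjusted p under 0.05. Blocking on the replicate number gave 0 as well, and array weights gave 2896 (21.2%). The log2 ratio of 3′ to 5′ ubiquitin signal, a sign of RNA quality, was 1.06, 1.18 and 1.38 on TNT replicates 1, 2 and 3, against 1.70, 1.60 and 1.66 on DMF replicates 1, 2 and 3. The ubiquitin ratio was lower on all TNT arrays, but those of actin and GAPDH overlapped between the groups. Actin was at 0.50 to 0.51 with TNT and 0.35 to 0.71 with DMF. GAPDH was at -0.01 to 0.19 with TNT and -0.03 to 0.21 with DMF. The part of RNA quality in the differences was not tested.

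Genes of the same system were taken from 12 lists made by locus code from general knowledge of the families, since the reference tables used here give many of them no name. Of 170 loci, 57 had a probe set of their own, and 47 beside the 3 genes were tested. The lists of heat shock factors (21 loci) and HSP100 (3 loci) had no probe set paired with 1 gene and were not analysed here. Without the 3 genes, 3 of 47 rose on the arrays numbered 2, 0 fell and 44 did not pass (limma, 6 arrays). The called share was 6.38% of the 47, against 4.18% of all tested probe sets, of which 2.39% were upward and 1.8% downward. Hop3, among the called genes, passed the filter only through the arrays numbered 2, as described below. At an unadjusted p under 0.05, 7 were higher and 2 lower, together 19.1% of the 47, against 27.2% of all tested probe sets (16.4% higher and 10.8% lower). Their median log2 difference was 0.03, against 0.07 over all tested probe sets. Both arrays numbered 2 lay above the other 4 for 11 of the 47, a share near the 22.4% of all tested probe sets.

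**Figure D3:**
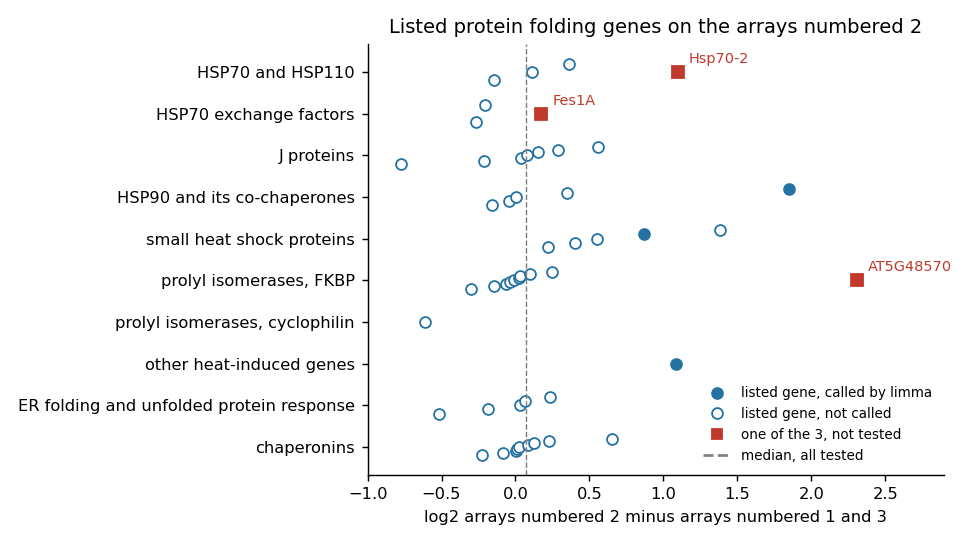
Log2 difference of the arrays numbered 2 from those numbered 1 and 3 (x axis) for each of the 47 other tested genes by list, filled where limma called it at an adjusted p under 0.05, with the 3 chaperone genes as red squares. Most listed genes lie near the median of all tested probe sets (dashed, 0.07), and the 3 called genes lie at 0.87, 1.08 and 1.85.

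The 3 that rose on the arrays numbered 2 were Hop3, HSA32 and AT1G54050. Hop3 (AT4G12400), a co-chaperone that links Hsp70 to HSP90, had signals of 39.5, 77.2 and 20.1 on TNT replicates 1, 2 and 3, against 12.9, 69.6 and 16.8 on DMF replicates 1, 2 and 3. It was 3.59-fold higher there (log2 difference 1.85 ± 0.33 SE, limma adjusted p = 0.0347). Its mean log2 signal was 4.35 on the arrays numbered 1 and 3, under the filter limit of 4.80, and 6.2 on the arrays numbered 2. Hop3 thus passed the filter only through the arrays where it was high, so its p-value adds no support. HSA32 (AT4G21320), a heat-stress-associated protein of thermotolerance, had signals of 36.4, 66.3 and 27.8 on TNT replicates 1, 2 and 3, against 39.3, 77.7 and 33.3 on DMF replicates 1, 2 and 3, and was 2.12-fold higher (limma adjusted p = 0.0347). AT1G54050, of the small heat shock protein list, was 1.82-fold higher (limma adjusted p = 0.0417). For all 3 both arrays numbered 2 exceeded the other 4. These calls were easily lost: over the 13 alternatives in which they were tested, Hop3 was called in 7, HSA32 in 6 and AT1G54050 in 3, with limma adjusted p up to 0.124, 0.166 and 0.191, and of the 47 genes 1 was called without TNT replicate 1, 4 without DMF replicate 2 (1 higher, 3 lower) and 0 without any of the other 4 arrays.

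Other relatives of the 3 genes did not pass on the arrays numbered 2. In the list of HSP70 and HSP110 genes AT3G09440 stood at 0.36, AT4G16660 at 0.11 and AT1G11660 at -0.15 on the log2 scale, beside Hsp70-2 at 1.10. Only these 3 genes beside Hsp70-2, of 18 loci in that list, had a probe set of their own. They are a small part of the family. Of the nucleotide exchange factors, the paralogues Fes1B (AT3G53800) and Fes1C (AT5G02150) stood at -0.21 and -0.26. The 9 other tested genes of the FK506-binding list had a median of -0.01, with 4 of 9 positive, beside 2.31 for AT5G48570. Of 20 loci in that list, 10 beside AT5G48570 had a probe set of their own. The rest of that family was not examined, so how AT5G48570 stands within it is not shown. Of the HSP90 co-chaperones, Hop1 and Hop2, relatives of Hop3, stood at 0.00 and -0.05. The small heat shock protein list, 5 tested genes, had a median of 0.55, all 5 positive, of which 1 rose. Its further members ATHSP22.0, AT1G53540, AT5G37670 and AT1G52560 were under the filter on low signal, where signals on the arrays numbered 2 were higher in general. ATHSP22.0, a small heat shock protein, had 20.3, 50.7 and 25.8 on TNT replicates 1, 2 and 3, against 13.4, 37.3 and 32.1 on DMF replicates 1, 2 and 3, so both arrays numbered 2 were its highest. They were also the highest for AT1G53540 and AT5G37670. AT1G52560 differed, with its lowest signal of 0.284 on DMF replicate 2.

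With TNT, 0 of the 47 passed in limma over the 6 arrays, and 9 had an unadjusted p under 0.05, 3 of them higher and 6 lower. These were 19.1% of the 47, against 8.76% of all tested probe sets (4.61% higher and 4.15% lower). Their median log2 difference was -0.03 against -0.02 over all tested probe sets. With both arrays numbered 2 left out, a basis taken with the results known, 4 rose, 3 fell and 40 did not pass. That fit called 14.9% of the 47, against 10.1% of all tested probe sets, 5.1% upward and 4.97% downward. AT5G51440 of the small heat shock protein list rose 8.61-fold (limma adjusted p = 0.000373), and its signals were 276, 103 and 213 on TNT replicates 1, 2 and 3, against 29.0, 89.8 and 27.3 on DMF replicates 1, 2 and 3. AT2G29500 of the same list rose 3.43-fold (limma adjusted p = 0.0122). BZIP60 (AT1G42990), a transcription factor of the unfolded protein response of the endoplasmic reticulum, rose 2.55-fold (limma adjusted p = 0.00856), and Hop2 (AT1G62740) rose 1.60-fold (limma adjusted p = 0.0348).

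The 3 that fell with TNT in that fit were AT3G10060 of the FK506-binding list, AT1G56300 of the J protein list, whose members stimulate the ATPase of Hsp70, and Cpn60beta2 (AT3G13470), a subunit of the plastid chaperonin. Their log2 differences were -0.91, -0.61 and -0.66. Relatives of Fes1A went the other way from it without passing: Fes1B stood at -0.61 and Fes1C at -0.23, where Fes1A stood at 0.83. With TNT replicate 2 alone left out, 2 of the 47 rose (AT5G51440 and BZIP60), 1 fell (Cpn60beta2) and 44 did not pass, where that fit called 6.94% of all tested probe sets, 3.69% upward and 3.25% downward.

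**Figure D4:**
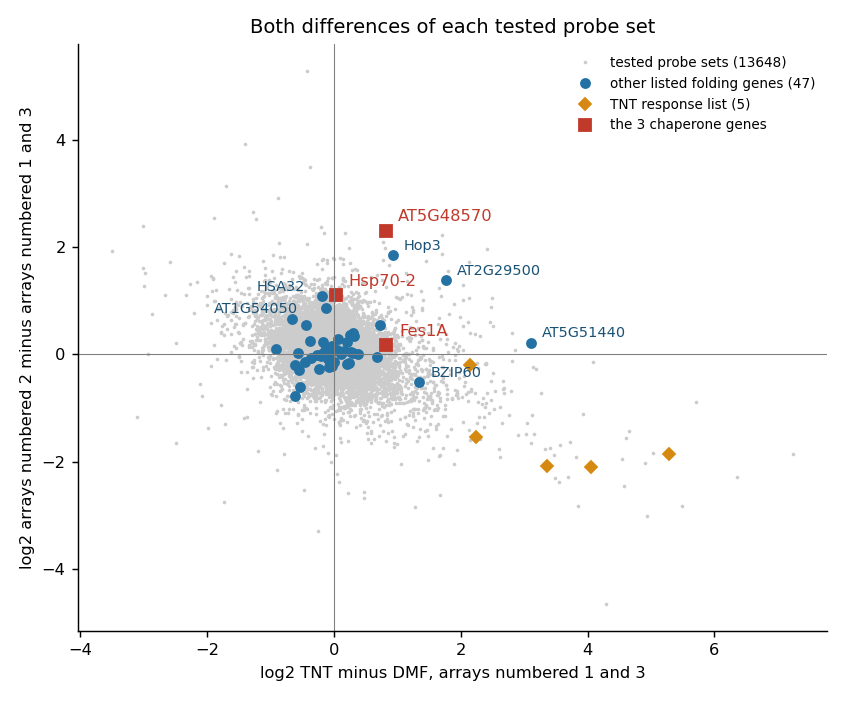
Each tested probe set by its log2 difference of TNT minus DMF on the arrays numbered 1 and 3 (x axis) and its log2 difference of the arrays numbered 2 from those numbered 1 and 3 (y axis), which share the 4 arrays numbered 1 and 3. AT5G48570 lies at 0.82 and 2.31, Hsp70-2 at 0.03 and 1.10 and Fes1A at 0.83 and 0.18, near the listed genes Hop3 and HSA32 in the first 2 cases, while the TNT response list lies to the right.

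The genes whose signals over the 6 arrays were most like those of the 3 were sought among 310 tested genes with a symbol and a log2 range of at least 1. With the mean log2 signal of the 3 they were cox2, PUB23, Hop3, DLAH, nad4L, LCR, bZIP44 and UBP19, with Pearson r between 0.94 and 0.98 over 6 arrays. The mitochondrial gene cox2, at 0.98, had signals of 35.2, 71.8 and 28.8 on TNT replicates 1, 2 and 3, against 24.5, 65.3 and 21.3 on DMF replicates 1, 2 and 3. For AT5G48570 alone the list was led by cox2, PUB23, NET1D and STR18, and for Hsp70-2 by UGT76D1, nad4L, AGL24 and ATSBT5.2. On the arrays numbered 1 and 3, the mean log2 signals of cox2, Hop3 and UGT76D1 lay under the filter limit of 4.80. They were thus candidates only through the arrays numbered 2. Fes1A had other genes at its side: PUB24 at 0.99, UGT84A3 at 0.98, ASPGB1 at 0.97 and ATSPS4F at 0.93. PUB24, a ubiquitin ligase of the U-box family, had signals of 82.7, 69.0 and 93.6 on TNT replicates 1, 2 and 3, against 42.0, 81.7 and 48.2 on DMF replicates 1, 2 and 3, so DMF replicate 2 alone of its group reached the TNT arrays, as for Fes1A. Among 12 listed folding genes with that range, Hop3 was nearest to AT5G48570 (0.94), AT1G54050 to Hsp70-2 (0.93) and AT5G51440 to Fes1A (0.93).

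Tissue markers and RNA quality were set beside these results. The 4 root markers, with PYK10 among them, had mean log2 signals of 6.72, 7.35 and 6.92 on TNT replicates 1, 2 and 3, and 7.77, 8.05 and 7.80 on DMF replicates 1, 2 and 3, so the mean was highest on the array numbered 2 in each group. Its members did not move alike: HRGP1, EXPA18 and EXPA7 were higher on the arrays numbered 2, by 0.55, 0.52 and 0.80 on the log2 scale, while PYK10 stood at -0.28, with both arrays numbered 2 below the other 4. The 2 green shoot markers, RCA and PRK, had 10.5, 10.9 and 10.8 with TNT and 11.2, 11.0 and 11.2 with DMF in the same order. Both lists were detected on every array of the whole seedlings, and in them no gene passed in either 6-array comparison. Without both arrays numbered 2, the root markers HRGP1 and EXPA18 and the shoot marker PRK fell with TNT, by log2 differences of -1.43, -1.29 and -0.80. Over the 6 arrays these 3 genes stood at -1.50, -1.06 and -0.54. In pair 2 alone they were not alike, at -1.65, -0.61 and -0.01. The log2 ratio of 3′ to 5′ actin signal was 0.51, 0.51 and 0.50 on the TNT arrays and 0.71, 0.47 and 0.35 on the DMF arrays in the order of numbers, and did not set the arrays numbered 2 apart. The part of root content in the results was not tested. In whole seedlings a change in the share of a tissue and a change in RNA per cell cannot be told apart.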

How the data were processed

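The authors deposited intensity values, linear probe set signals. The submitters' processing notes name MAS5 and GCOS, and no version is given in the sources used here. On each array the mean without its top and bottom 2% was 100.01, so arrays had been scaled to a common level. The 64 control probe sets were left out, symbols were updated through gene identifiers to TAIR10.1 (13436 of 13513 matched), and no coordinates are given because no build is named. Signals were taken to log2 with no offset. The 13648 probe sets whose mean log2 signal over all 6 arrays reached the 40th percentile went into tests with limma 3.58.1 in R 4.3.3 (lmFit, eBayes with an intensity trend, two-sided, Benjamini-Hochberg over all tested, threshold 0.05): TNT against DMF, and arrays numbered 2 against 1 and 3 with treatment as a term. The fits were tested on simulated data whose noise was independent between arrays. In the real data same-numbered arrays deviated together, so the simulation does not show how the fits behave under that condition. Where a gene had several probe sets, the one with the highest mean was used. The number of the TNT array whose title has none was taken as 1, the number left over.

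The genes, lists and split by number were chosen with earlier results of these data known. Genes named were, by rule, up to 4 per list by p for the arrays numbered 2 and up to 2 by p for TNT, the genes most alike in pattern, and the 10 largest called differences each way; ATHSP22.0 and other list members under the filter were named after their values were seen. Alternatives were no filter, the 60th percentile, an offset of 16, quantile normalization, median centring, no trend, array weights, 1-gene probe sets, the replicate block, each array left out, and both arrays numbered 2 left out. Same-numbered arrays deviated together from their group means, with r across probe sets of 0.54, 0.47 and 0.43 for numbers 1, 2 and 3. Unlike numbers were not compared. Deviations from a group mean depend on each other, so a shift shared by the arrays numbered 2 alone would also raise r for the other numbers. Whether the numbers pair the samples is thus not shown, and the labels do not say. A pair in this text means arrays of the same number.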

Additional observations from a re-analysis of the deposited data

Results flagged for a closer look

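The TNT difference of AT5G48570 and of Fes1A had 1 sign in pairs 1 and 3 and the other in pair 2. In pair 2 AT5G48570 stood at -0.46 and Fes1A at -0.075, a ratio of 0.949. The sign of Fes1A there thus rests on a small difference between single arrays. For AT5G48570, the log2 difference of pair 2 minus the mean of pairs 1 and 3 was -1.276, and for Fes1A it was -0.905. Pair 2 is a single pair and this contrast between pairs was not tested. The TNT array of pair 2 lay near the DMF arrays in the listed genes that rise with TNT, but not in HRGP1, which was lower with TNT in every pair. Whether the label of that array is right, or its seedlings received the same dose, cannot be settled from these values. The same order of signs, higher with TNT in pairs 1 and 3 and lower in pair 2, was present in 17.6% of tested probe sets.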

How the results depend on the processing

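For TNT against DMF the count of called probe sets was 0, and it became 2896 with array weights (46.1% of them upward) and 1374 without both arrays numbered 2; with single arrays left out it ranged from 0 to 947, at 947 without TNT replicate 2 and 3 without DMF replicate 2. Of the listed folding genes 0 were called, against 13 with array weights, 7 without both arrays numbered 2 and 0 to 3 with single arrays left out, 3 of them without TNT replicate 2. The replicate block changed no call (0 probe sets) and left the log2 difference of each gene as it was, at 0.53 for Fes1A. With single arrays left out the log2 difference ranged from -0.18 to 1.37 for AT5G48570, -0.31 to 0.42 for Hsp70-2 and 0.35 to 0.74 for Fes1A.

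For the arrays numbered 2 the count of 571 (57.1% upward) became 321 with the 60th percentile filter (40.5% upward), 1301 with median centring (14.3% upward), 65 with array weights (44.6% upward) and 272 with 1-gene probe sets, where fewer are tested; quantile normalization gave 684 (44.4% upward), and leaving out single arrays gave 37 to 1153. Of the listed folding genes 3 were called, against 0 with the 60th percentile filter, which removes those 3, 5 with the offset, 0 with array weights and 0 to 4 with single arrays left out. The log2 difference of Hsp70-2 was 0.95 with the offset and 0.86 with median centring. Within the DMF group alone it was 2.95 for AT5G48570 and 0.63 for Fes1A. With single arrays left out it ranged from 1.67 to 2.95 for AT5G48570, 1.02 to 1.17 for Hsp70-2 and -0.28 to 0.63 for Fes1A. Apart from the filter and the number of probe sets tested, the cause of these moves was not tested.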

Other observations

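Among genes with a symbol called on the arrays numbered 2, the co-chaperone gene Hop3, described above, had the next largest upward difference (1.85 on the log2 scale) after AFR. AFR (AT2G24540), an F-box protein of far-red light signalling, was higher there by 2.07 on the log2 scale (limma adjusted p = 0.00951), and HYH (AT3G17609), a homologue of the light-signalling factor HY5, by 1.77 (limma adjusted p = 0.0334). AFR signals were 17.6, 89.5 and 21.7 on TNT replicates 1, 2 and 3, and 22.3, 101 and 31.1 on DMF replicates 1, 2 and 3. Averaged in log2 over the arrays numbered 1 and 3, Hop3, AFR and HYH lay under the filter limit of 4.80. They passed only through the arrays where they were high, so their p-values add no support. The expansin EXPB3 (AT4G28250) was higher by 1.55 (limma adjusted p = 0.0322). PDF1.2b (AT2G26020), a plant defensin, was lower by a log2 difference of -2.39 (limma adjusted p = 0.00501), and PORB (AT4G27440), a protochlorophyllide oxidoreductase, by -1.75 (limma adjusted p = 0.00199). UGT73B1 stood at -1.60 and LTI30 at -1.18. UGT73B1 had signals of 383, 65.9 and 288 on TNT replicates 1, 2 and 3, against 93.0, 41.6 and 61.0 on DMF replicates 1, 2 and 3. Those of LTI30 were 349, 139 and 428, against 178, 96.5 and 177. Both genes thus differed more by number within TNT than within DMF. TNT replicate 2, of uncertain label or dose, lay within their DMF range, so what these differences measure is uncertain.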
